A study of Mus musculus with 6 samples.

Results

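Rab GTPases are small membrane switches that direct vesicle traffic, and the 42 Rab genes described here are those read in osteoclast-forming mouse macrophage cultures with and without Visomitin. A gene belonged to the set when the annotation called it protein-coding, its symbol was Rab followed by digits and at most a single letter, and it reached 1 TPM in at least 3 of the 6 libraries. Of 59 protein-coding genes with such a symbol, 42 met the level and 17 did not, out of 11753 genes that met it among 57180 listed identifiers. TPM, the usual unit of deposited RNA-seq levels, is the share of a library's transcripts that a gene holds after allowance for its length.

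The cells were primary bone marrow-derived macrophages from wild-type mice, held for 5 days in a culture that drives osteoclast formation, either with Visomitin (3 libraries, Visomitin 1 to 3) or with no such treatment (3 libraries, control 1 to 3). Visomitin is a plastoquinone antioxidant carried into mitochondria by its charged tail. The labels give no dose and do not say whether the libraries came from separate mice or cultures. The p-values therefore speak only of how these libraries scatter, a scatter that may be technical. Depth cannot be read from TPM and is unknown, so precision rests on having 3 libraries a group. The comparison asks what Visomitin changes in the transcripts of these cultures.

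A Rab protein is carried to its membrane by an escort protein that presents it for addition of lipid groups to cysteines at its end, is loaded with GTP there by an exchange factor, recruits effectors that move, tether or fuse the vesicle, and is switched off by a GTPase-activating protein. Osteoclasts build their ruffled border, the membrane that faces bone, by fusing acidic late endosomes and lysosomes with it, and Rab7 is known for its part in that step. Bisphosphonate drugs that contain nitrogen block the supply of the lipid that Rab proteins carry, which is one reason the family is studied in these cells.

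Rab38 stood apart from the rest, and parts of its coding sequence are set beside those of its closest relatives, Rab32 and Rab29. The stretch of coding sequence around the phosphate-binding loop, the part that holds the nucleotide, is shown first, with the codons of the loop in capitals, from GENCODE M21 transcripts on GRCm38. It lies at coding bases 37 to 78 in Rab38 (chromosome 7), 79 to 120 in Rab32 (chromosome 10) and 31 to 72 in Rab29 (chromosome 1).

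Rab38 loop: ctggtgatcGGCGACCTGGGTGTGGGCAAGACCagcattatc

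Rab32 loop: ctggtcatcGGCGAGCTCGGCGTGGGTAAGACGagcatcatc

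Rab29 loop: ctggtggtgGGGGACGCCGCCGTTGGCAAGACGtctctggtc

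The last coding bases before the stop codon are shown next, because the lipid is added there, with each cysteine codon among the last 5 codons in capitals. They lie at coding bases 592 to 633 in Rab38, 628 to 669 in Rab32 and 571 to 612 in Rab29.

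Rab38 end: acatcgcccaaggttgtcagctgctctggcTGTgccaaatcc

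Rab32 end: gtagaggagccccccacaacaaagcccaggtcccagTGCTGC

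Rab29 end: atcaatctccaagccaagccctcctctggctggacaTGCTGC

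Among its last 5 codons Rab38 has 1 cysteine codon, and Rab32 and Rab29 have 2 each. Among the 42 genes, 34 had 2 cysteine codons in the last 5 and 8 had 1, the others with 1 being Rab8a, Rab8b, Rab13, Rab18, Rab23, Rab28 and Rab40c. In a global alignment, 65.4% of aligned coding positions were identical between Rab38 and Rab32 and 63.9% between Rab38 and Rab29. For Rab32 and Rab29 the share was 60.4%. Pairs of members that share a number ranged from 62.75% (Rab7 and Rab7b) to 78.61% (Rab6a and Rab6b). Protein sequences were not aligned. No 31-base word of a Rab38, Rab32 or Rab29 transcript occurred in a transcript of any other gene.

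Visomitin cultures held less Rab38 transcript, and no other Rab gene passed the test. Rab38 serves the making of lysosome-related organelles such as melanosomes. It was the single member to pass the test, limma on log2(TPM + 1) with Benjamini-Hochberg adjustment over all 11753 genes. The other 41 members had log2 differences, Visomitin minus control, of -0.71 to 0.51 and did not pass, with limma adjusted p from 0.052 to 0.998. Of the 42, limma called 0 higher and 1 lower (2.38%), where 2.08% of all tested genes were called higher, 5.03% lower and 7.1% either way. The same fit had 12 members (28.6%) with an unadjusted p under 0.05, 8 higher and 4 lower, where 24.4% of all tested genes had one. After median-ratio scaling 2 were called higher and 1 lower, and after quantile normalization 4 were called higher and 1 lower.

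Rab38 (ENSMUSG00000030559) was at 5.39, 4.73 and 5.70 TPM in Visomitin 1 to 3, against 21.97, 23.58 and 19.94 TPM in control 1 to 3. All Visomitin libraries lay below all controls, with a wide gap between the groups. The mean was 5.27 ± 0.50 TPM with Visomitin and 21.8 ± 1.82 TPM in controls (SD, n = 3 each). The log2 difference was -1.86 (SE 0.12, limma adjusted p = 8.14e-05, 95% interval -2.14 to -1.59), a 3.64-fold fall on the log2(TPM + 1) scale, which understates changes of low genes. Only 46 of the 11753 tested genes had a more negative log2 difference.

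Markers of the osteoclast moved the same way as Rab38. Of 13 osteoclast markers, among them Ctsk, Acp5 and Dcstamp, 13 were called lower, and their summed level was 3528 to 4158 TPM in Visomitin libraries against 13341 to 14358 TPM in controls. Of 10 macrophage markers 2 were called higher, the mannose receptor Mrc1 and the apoptotic-cell receptor Mertk. The summed level of the 10 was 43030 to 48304 TPM with Visomitin against 37388 to 41570 TPM in controls. Most of that sum was Lyz2, at 38065 to 42065 TPM with Visomitin and 32021 to 36284 TPM in controls. Of the 10, 2 had log2 differences below 0 and were not called. They were Cd68 (-0.20, lower with Visomitin without overlap) and Fcgr1 (-0.24, groups overlapping). Lyz2, Cd68 and Fcgr1 were named after their values were seen. The Mrc1 call was lost without Visomitin 2 or control 3, the Mertk call without Visomitin 2, control 1, control 2 or control 3, and the call of the osteoclast factor Nfatc1, named after its values were seen, without control 1. No marker of either list was at 0 in all libraries. Summed markers of lymphoid, dendritic and mast cells were at most 1.95 TPM in any library, and those of neutrophils at most 19.5 TPM, with 6 of 8 at 0. The erythroid and megakaryocyte sum was 351 to 484 TPM with Visomitin and 334 to 456 TPM in controls, with both globin genes at 0. In bulk RNA, fewer osteoclasts and less Rab38 per cell cannot be told apart, and the part of these markers in the Rab38 result was not tested.

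Rab32, which acts beside Rab38 on lysosome-related organelles, was at 40.0, 48.4 and 49.9 TPM in Visomitin 1 to 3, against 43.2, 47.2 and 40.6 TPM in control 1 to 3. The groups overlapped, and the log2 difference of 0.07 (95% interval -0.18 to 0.33, limma adjusted p = 0.73) did not pass. The ratio of Rab38 to Rab32 TPM was 0.135, 0.0977 and 0.114 in Visomitin 1 to 3, against 0.508, 0.500 and 0.492 in control 1 to 3. Rab38 therefore made up 10.3% of the pair's summed TPM with Visomitin and 33.3% in controls. Across 12 pairs of close relatives, Rab38 with Rab32 had the widest change in log2 ratio, -1.94 (SE 0.12). In an exact two-sided permutation test on this pair p was 0.1, and 0.3 after adjustment over the 12 pairs. A p of 0.1 is as small as 3 libraries against 3 can give. The pair was added to those that share a number, and Rab38 was the only member called. Its rank and its p therefore restate the Rab38 result and are no separate support. The ratio also separated the groups, without reaching a smaller p, for Rab3a to Rab3d (-0.33), Rab6a to Rab6b (-0.20) and Rab8a to Rab8b (-0.25). Rab29, a Golgi and lysosome Rab tied to the kinase LRRK2, was at 36.7 to 37.9 TPM with Visomitin and 32.8 to 36.3 TPM in controls, and its log2 difference of 0.13 did not pass (limma adjusted p = 0.42).

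**Figure D1:**
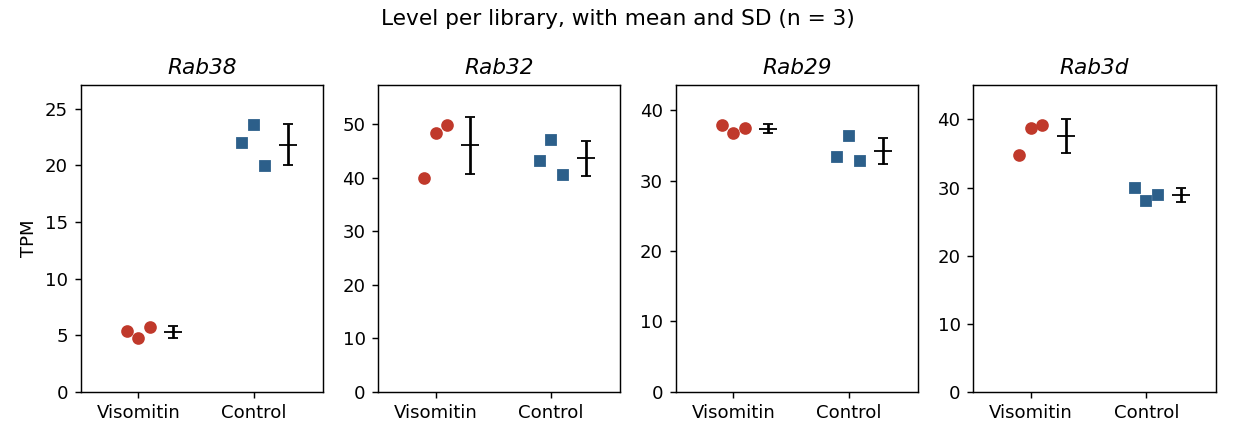
TPM of Rab38, Rab32, Rab29 and Rab3d in each library, Visomitin (circles) left of control (squares), with the mean and SD of 3 libraries as a bar beside each group. The Visomitin libraries hold 4.73 to 5.70 TPM of Rab38 and the controls 19.9 to 23.6 TPM, while the groups overlap for Rab32.

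Rab3d, a Rab of secretory granules that is known to act in osteoclast membrane traffic, came next in strength of evidence and went the other way. It was at 34.7, 38.8 and 39.2 TPM in Visomitin 1 to 3, against 29.9, 28.0 and 28.9 TPM in control 1 to 3. All Visomitin libraries lay above all controls, and the log2 difference was 0.36 (SE 0.09, 95% interval 0.15 to 0.58). It missed the threshold narrowly (limma adjusted p = 0.052). It passed under 6 of 16 alternatives, among them median-ratio scaling, quantile normalization and the fit without Visomitin 1. Its relative Rab3a, best known from synaptic vesicles, was low, at 4.99 to 5.92 TPM with Visomitin and 5.07 to 5.47 TPM in controls. The Rab3a gene overlaps Mpv17l2 on the opposite strand, and the labels do not say whether reads were counted by strand.

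The late endosome and lysosome group was led by Rab7, the most abundant Rab transcript of the set. Rab7 was at 516, 466 and 449 TPM in Visomitin 1 to 3, against 570, 513 and 497 TPM in control 1 to 3. The groups overlapped, and the log2 difference of -0.14 (SE 0.09, 95% interval -0.34 to 0.06) did not pass (limma adjusted p = 0.365). Of its 31-base words 16.3% were shared with other genes, chiefly the pseudogene Rab7-ps1, which was listed at 0 in all libraries.

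Rab9, which returns mannose 6-phosphate receptors from late endosomes to the Golgi, was at 21.4, 20.8 and 19.5 TPM in Visomitin 1 to 3, against 16.1, 17.1 and 12.8 TPM in control 1 to 3. The groups did not overlap, but the log2 difference of 0.41 (95% interval 0.12 to 0.70) did not pass (limma adjusted p = 0.093). Rab24, linked to autophagy, was at 38.5, 40.5 and 45.2 TPM with Visomitin, against 33.6, 33.0 and 33.9 TPM in controls (log2 difference 0.29, limma adjusted p = 0.10). It also separated the groups without passing. Rab24 overlaps the far more abundant Prelid1 on the opposite strand, which was at 394 to 414 TPM with Visomitin and 357 to 367 TPM in controls. Rab7b, which acts between late endosomes and the Golgi, was at 41.5 to 54.5 TPM with Visomitin and 55.4 to 58.3 TPM in controls (log2 difference -0.26, limma adjusted p = 0.20). Rab12, which sends receptors to lysosomes, Rab20, of phagosome maturation, and Rab34, of lysosome positioning, had overlapping groups and log2 differences of 0.14, -0.10 and -0.06. Rab34 turned to a positive difference under 1 of 16 alternatives. The 7 genes of this group had 0 calls, and 3 had an unadjusted p under 0.05 in limma. For this and the other sites of action, the background is that 24.4% of all tested genes had such a p. Of all tested genes 2.08% were called higher and 5.03% lower. No site was tested against these shares.

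The early endosome group held Rab5a, Rab5b and Rab5c, which mark early endosomes and promote their fusion, with Rab21, of integrin traffic, and the related Rab22a and Rab31. None of the 6 was called by limma, 0 had an unadjusted p under 0.05, none separated the groups, and their log2 differences were 0.00 to 0.10. Rab5c, the most abundant, was at 260, 294 and 324 TPM in Visomitin 1 to 3, against 284, 286 and 297 TPM in control 1 to 3. The control values of Rab5c lay inside the range of the Visomitin ones, so neither group was the higher. Rab5c made up most of the Rab5 transcript, and Rab5a the least, at 22.4 to 23.2 TPM with Visomitin and 20.5 to 22.9 TPM in controls. Rab22a showed 1 library apart, Visomitin 1, at 13.4 TPM against 25.5 TPM in both other Visomitin libraries.

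The recycling and plasma membrane group held 10 members, of which limma called 0 and 3 had an unadjusted p under 0.05. Rab11a, which runs the slow recycling route, was at 133, 140 and 149 TPM in Visomitin 1 to 3, against 154, 165 and 152 TPM in control 1 to 3. The groups did not overlap, yet the log2 difference of -0.16 (95% interval -0.34 to 0.03) did not pass (limma adjusted p = 0.28). Rab10, known for moving the glucose transporter GLUT4, was at 49.3, 55.6 and 54.5 TPM in Visomitin 1 to 3, against 56.9, 55.5 and 53.3 TPM in control 1 to 3 (log2 difference -0.06). Rab13, a Rab of cell junctions, was at 16.1 to 20.5 TPM with Visomitin and 16.9 to 17.9 TPM in controls. Rab35, of fast recycling, was at 41.5 to 51.2 TPM with Visomitin and 50.2 to 52.9 TPM in controls (log2 difference -0.14).

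Higher levels without overlap, but short of the threshold, were read for Rab14, Rab4b and Rab8b. Rab14, of Golgi-to-endosome traffic, was at 116 to 130 TPM with Visomitin and 102 to 107 TPM in controls (log2 difference 0.19, limma adjusted p = 0.18). Rab4b, of fast recycling, was at 57.5 to 67.1 TPM with Visomitin and 49.9 to 54.0 TPM in controls (log2 difference 0.25, limma adjusted p = 0.14). Rab8b, of exocytosis, was at 39.8 to 45.9 TPM with Visomitin and 30.0 to 38.9 TPM in controls (log2 difference 0.31, limma adjusted p = 0.15). Their relatives had overlapping groups: Rab8a differed by 0.06, Rab11b by 0.04 and Rab4a, at under 3 TPM in every library, by -0.15 on the log2 scale. Rab4b shared 62.6% of its 31-base words with other annotated genes, chiefly the overlapping Gm21983, listed at 0 in all libraries.

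The endoplasmic reticulum and Golgi group differed most in summed level among the 6 groups, although limma called 0 of its genes and 3 had an unadjusted p under 0.05. Its 10 members together held 541, 567 and 583 TPM in Visomitin 1 to 3, against 614, 616 and 642 TPM in control 1 to 3. Rab1b, which drives transport from the endoplasmic reticulum to the Golgi, carried most of that difference, at 274, 296 and 312 TPM in Visomitin 1 to 3, against 325, 348 and 387 TPM in control 1 to 3. The groups did not overlap for Rab1b, but its log2 difference of -0.26 (95% interval -0.47 to -0.05) did not pass (limma adjusted p = 0.13). Rab1a, with the same role, was at 87.5 to 93.0 TPM with Visomitin and 88.6 to 99.5 TPM in controls (log2 difference -0.05).

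Others in the Golgi group differed in either direction, and none passed the adjusted threshold. Rab43 was at 34.2 to 40.3 TPM with Visomitin and 24.6 to 30.3 TPM in controls (log2 difference 0.35, limma adjusted p = 0.12), and 74.8% of its 31-base words were shared with the overlapping Gm45140, at up to 1.34 TPM. Rab18, which acts on lipid droplets, was at 34.0 to 41.2 TPM with Visomitin and 38.7 to 52.6 TPM in controls (log2 difference -0.27, limma adjusted p = 0.25). Rab6a, Rab2a and Rab2b, of Golgi traffic, had log2 differences of 0.06, -0.03 and 0.03, and the sign of Rab2a and Rab2b changed under 2 of 16 alternatives each. Rab6b, Rab19 and Rab33b were low, under 10 TPM in every library. Rab19 was the only one of these that lay lower with Visomitin without overlap, and Rab6b the only one that lay higher.

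Rab23, a regulator of Hedgehog signalling, had the widest interval of the set. It was at 2.65, 4.44 and 6.34 TPM in Visomitin 1 to 3, against 5.76, 4.68 and 15.7 TPM in control 1 to 3. Control 3 alone was high, and the log2 difference of -0.71 (95% interval -1.64 to 0.22) did not pass (limma adjusted p = 0.33). The summed level of 10 stromal markers was 80.8 to 167 TPM in the Visomitin libraries, against 216, 110 and 334 TPM in control 1 to 3, so control 3 was the highest there too. The part of stromal RNA in the Rab23 values was not tested. Rab28, known from cone photoreceptors, was at 27.7 to 32.0 TPM with Visomitin and 23.4 to 26.3 TPM in controls (log2 difference 0.26, limma adjusted p = 0.15), and Rab40c and Rab42 had overlapping groups. Of the 4 genes outside the named sites of action, Rab23, Rab28, Rab40c and Rab42, limma called 0, and 1 had an unadjusted p under 0.05.

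**Figure D2:**
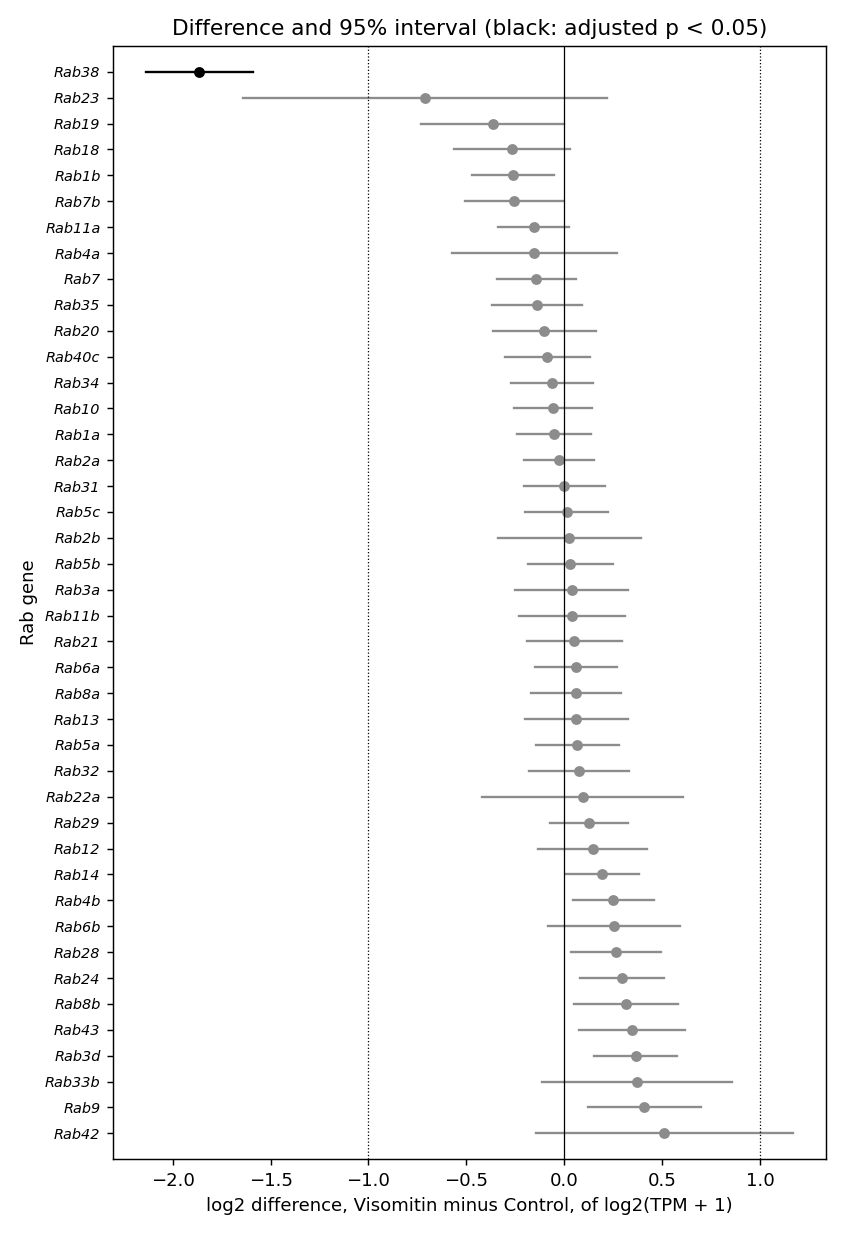
Log2 difference of each of the 42 Rab genes, Visomitin minus control, with its 95% interval from limma, ordered from the lowest. Black marks an adjusted p under 0.05 and dotted lines mark a 2-fold change. Rab38 lies alone at -1.86, and only the intervals of Rab38, Rab23 and Rab42 reach past a 2-fold change.

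Within these libraries, the errors were small enough to bound most members. The scatter between libraries may be technical, so the intervals may not hold for other mice or cultures. The 95% interval lay wholly inside a 2-fold change for 39 of 42 members (92.9%), compared with 89.8% of all tested genes. It lay inside a 1.5-fold change for 33 members (78.6%), compared with 62.8% of all tested genes. These shares were not matched for level. A mean of at least 5 TPM kept 38 of the 42 members, and 9047 genes in place of 11753 in the whole fit. Whether the members were steadier than genes of like level was not tested. The median log2 difference was 0.04 over the members and -0.03 over all tested genes, and 26 members were above 0 and 16 below (61.9% above, where 44.3% of all tested genes were). Without Visomitin 2 the members' median was -0.01. The groups did not overlap for 15 of 42 members (35.7%), where 30.4% of all tested genes had groups that did not overlap. Of the 42, 10 (23.8%) were higher, where the background was 11.9%, and 5 (11.9%) were lower, where it was 18.4%.

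In level, the set spanned a wide range. Over all libraries 7 members averaged at least 100 TPM, 27 averaged 10 to 100 TPM and 8 averaged less than 10 TPM. Rab7, Rab1b and Rab5c together made up 39.7% of the summed Rab TPM. The summed level of the 42 genes was 2646, 2826 and 2859 TPM in Visomitin 1 to 3, against 2905, 2832 and 2822 TPM in control 1 to 3, so the groups overlapped. Visomitin 1 was the lowest, and it also stood apart from the other Visomitin libraries on the second principal component of all tested genes (25.1, against -17.2 and -16.8). Rab38 was called lower with and without Visomitin 1.

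**Figure D3:**
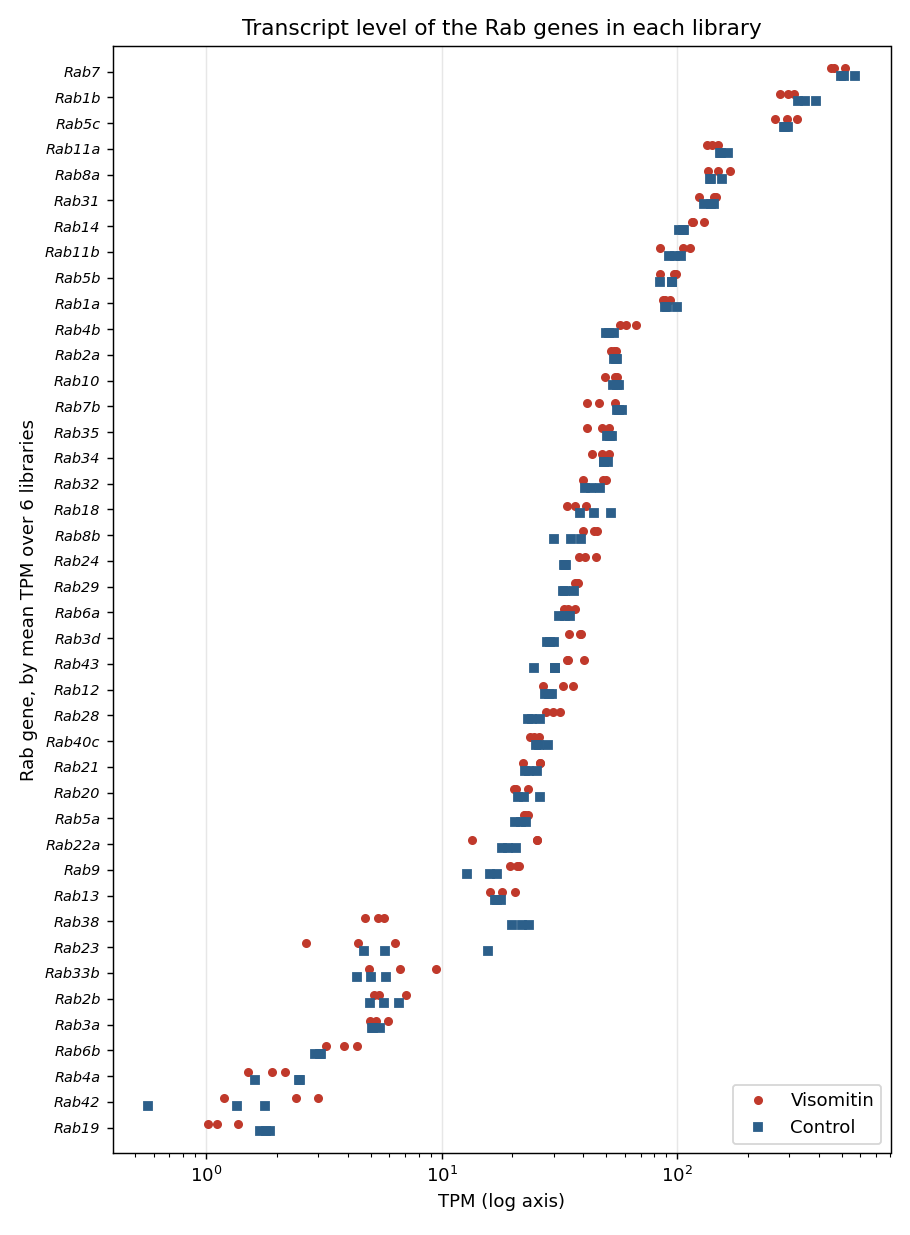
TPM of each of the 42 Rab genes in the 6 libraries on a log axis, Visomitin as circles above control as squares, ordered by mean level. Rab7 tops the set at 449 to 570 TPM, and only Rab38 shows a gap between groups as wide as 5.70 against 19.9 TPM.

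**Figure D4:**
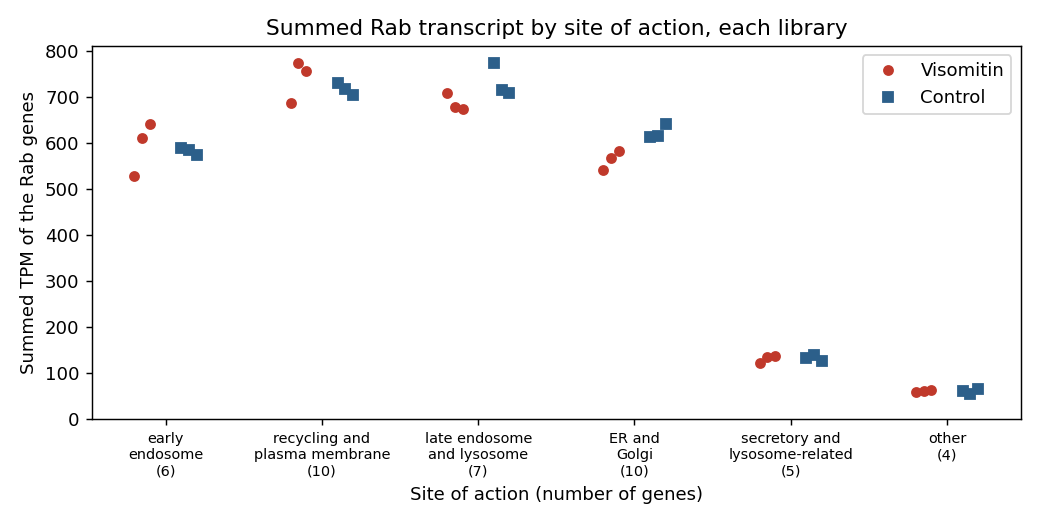
Summed TPM of the Rab genes by site of action in each library, Visomitin (circles) left of control (squares), with the number of genes in brackets. The endoplasmic reticulum and Golgi group is at 541 to 583 TPM with Visomitin and 614 to 642 TPM in controls, and the early endosome, recycling, secretory and remaining groups overlap.

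The late endosome and lysosome sums stood at 675 to 708 TPM with Visomitin and 709 to 775 TPM in controls, which all but met. Rab7 made up most of that sum. The secretory and lysosome-related sums, with Rab38 falling and Rab3d at higher values, were 123 to 138 TPM with Visomitin and 127 to 140 TPM in controls.

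Some Rabs named in osteoclast work were scarce here. Rab27a, which docks secretory lysosomes, did not meet the required level and reached 1 TPM only in Visomitin 3. It was at 0.66, 0.86 and 1.12 TPM in Visomitin 1 to 3, against 0.39, 0.52 and 0.36 TPM in control 1 to 3. Rab39 was the other gene that reached 1 TPM in some library without meeting the rule, at 0.53 to 1.44 TPM with Visomitin and 0.58 to 0.83 TPM in controls. Rab44, studied as a brake on osteoclast formation, was listed at 0 in all libraries but control 3, where it was at 0.14 TPM. Just inside the rule, Rab42 was at 1.19 to 2.99 TPM with Visomitin and 0.57 to 1.78 TPM in controls, and Rab19 was at 1.02 to 1.37 TPM with Visomitin and 1.69 to 1.87 TPM in controls. Of the 42 members, 41 reached 1 TPM in all 6 libraries and Rab42 in 5.

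For the proteins that load, switch and read Rabs, the number of calls depended on the scaling and weighting. Of 9 genes for lipid addition, escort and membrane extraction limma called 0, and 2 had an unadjusted p under 0.05, with Gdi2, which extracts Rabs from membranes, at 385 to 448 TPM with Visomitin and 306 to 378 TPM in controls (log2 difference 0.29, limma adjusted p = 0.13), and with Rabggtb, the catalytic subunit that adds the lipid, at -0.04. Of 42 exchange factor genes 1 was higher (Trappc6a, 0.37) and 1 lower (Rabgef1, an exchange factor for Rab5, -0.47). Of 37 GAP genes 1 was higher (Evi5, 0.67) and 1 lower (Rabgap1l, -0.75), and of 41 effector genes 1 was higher (Appl2, 0.45) and 2 lower (Acap2, -0.50, and Micall1, -0.59). Each of these 7 calls was lost without at least 4 of the 6 libraries in turn, with limma adjusted p up to 0.15. Of 10 genes of the HOPS and CORVET tethers, 9 of the exocyst and 19 SNARE genes, limma called 0. Among them 1, 3 and 0 had an unadjusted p under 0.05. In the same fit 24.4% of all tested genes had such a p, 2.08% were called higher and 5.03% lower. No list was tested against these shares. After median-ratio scaling the effectors had 3 higher and 2 lower, the GAPs 2 higher and 1 lower, and the exocyst 0 higher and 1 lower. After quantile normalization the effectors had 5 higher and 2 lower, the GAPs 2 higher and 1 lower, the exocyst 1 higher and 1 lower, and the lipid addition and escort list 1 higher and 0 lower. With array weights the effectors had 4 higher and 5 lower, the GAPs 5 and 1, the exchange factors 4 and 2, the exocyst 1 and 2, the tethers 2 and 0, and the lipid addition and escort list 1 and 0. When low genes were kept in, the effectors and GAPs had 0 calls and the exchange factors 1 higher and 0 lower.

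Among effectors tied to Rab7 and the ruffled border, Plekhm1, a Rab7 effector whose loss causes osteopetrosis, was at 37.0, 48.4 and 43.7 TPM in Visomitin 1 to 3, against 57.6, 59.1 and 52.2 TPM in control 1 to 3. The groups did not overlap, and the log2 difference of -0.39 did not pass (limma adjusted p = 0.084). A short list of Rab kinases, phosphatases and the sorting nexin Snx10 had 2 of 5 called lower, where 5.03% of all tested genes were. The 2 were Snx10 itself and Ppm1j. The other 3, among them Lrrk1 and Ppm1h, were not called (limma adjusted p from 0.11 to 0.77). This list was not tested against that share. Snx10, an endosomal sorting nexin also lost in osteopetrosis, fell to 45.1 to 51.6 TPM with Visomitin, against 92.9 to 117 TPM in controls (log2 difference -1.13, limma adjusted p = 0.00088). Ppm1j, a phosphatase related to the Rab phosphatase Ppm1h, was at 1.13, 0.81 and 0.81 TPM in Visomitin 1 to 3. Controls held 3.97 to 4.62 TPM (log2 difference -1.49, limma adjusted p = 0.0012). Ppm1j met the required level only through the controls, the group where it was high, so its call is not taken as support. With a mean of at least 5 TPM it gave no value. The Rab kinase gene Lrrk1, at 30.0 to 36.5 TPM with Visomitin and 29.8 to 35.1 TPM in controls, did not pass (log2 difference 0.10). The osteoclast markers fell in the same libraries, and their part in the Snx10 and Ppm1j values was not tested.

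The related Arf and Arl small GTPases, which also act in membrane traffic, were read for comparison. Of 27 such genes limma called 1 higher (Arl5c, log2 difference 1.11) and 0 lower, with a median of -0.02. Among all tested genes 2.08% were called higher and 5.03% lower. Without Visomitin 1 the counts were 2 higher and 1 lower, and after median-ratio or quantile scaling 3 higher and 0 lower, with medians of 0.02 and 0.04. With array weights they were 6 higher and 2 lower, where 1263 of all tested genes were called higher and 1572 lower. Whether the families differ was not tested.

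**Figure D5:**
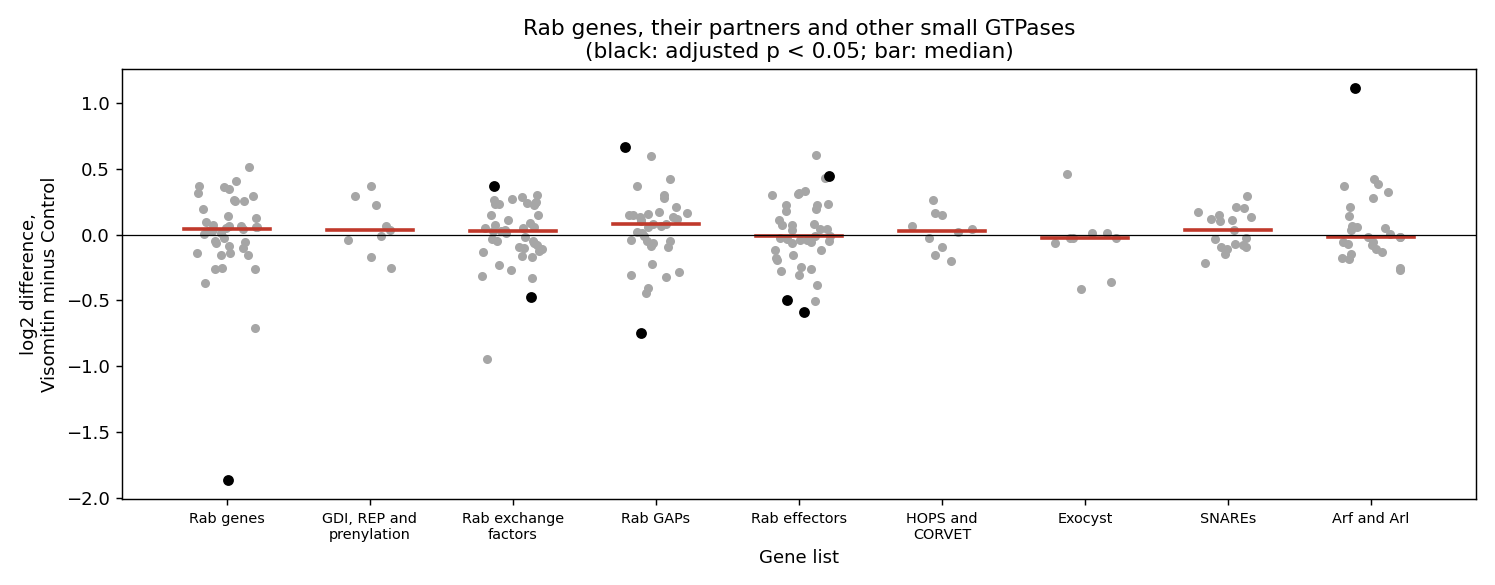
Log2 difference, Visomitin minus control, of each gene in the Rab set, in the lists of Rab partners and tethers and in the Arf and Arl family. The list of Rab kinases, phosphatases and Snx10 is not plotted, with Ppm1j at -1.49 and Snx10 at -1.13. Black points passed an adjusted p of 0.05 and bars are medians. Rab38 at -1.86 is the lowest point shown, and Arl5c at 1.11 is the highest.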

How the data were processed

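RNA was read as 6 stranded mRNA libraries, per the labels' protocols. The authors deposited TPM per gene, and the processing notes name fastp, HISAT2 and StringTie, without versions. The labels do not give the genome build, annotation or strand setting. No scaling between libraries is recorded. Gene symbols were looked up in a table of names (51884 of 57180 identifiers) and gene types from GENCODE M21. Genes that reached 1 TPM in 3 or more libraries were fitted as log2(TPM + 1) with limma 3.58.1 in R 4.3.3 (trend, group as the only term, two-sided, Benjamini-Hochberg over all 11753 genes, threshold 0.05), after a check on simulated data.

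The members, roles, partner lists and alternatives were chosen with earlier results of these data known. Named genes were those past the test, a set chosen whatever its result (Rab7, Rab3d, Rab27a, Rab38, Rab32, Rab44, Rab5c, Rab11a, Rab10), the most abundant, and up to 4 partners a list with the lowest p-values and up to 3 markers. Plekhm1, Gdi2, Rabggtb, Lrrk1 and Snx10 were named whatever their result, and other members by values or range. Pairs of relatives shared a number in their symbols, with Rab38 and Rab32 added. Alternatives were pseudocounts of 0.1 and 5, other filters and scalings, no trend, array weights, a replicate block, protein-coding genes only, and each library left out. Another comparison list is not reported here.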

Additional observations from a re-analysis of the deposited data

How the results depend on the processing

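Rab38 was called lower under all 16 alternatives, with log2 differences of -2.03 to -1.38 (limma adjusted p from 1.17e-05 to 0.0023); the smallest came with a pseudocount of 5. The count of Rab genes called higher was 0 in the main fit, 1 with a mean of at least 5 TPM or with protein-coding genes only, 2 with median-ratio scaling, 4 with quantile normalization and 7 with array weights, and 0 to 2 with a library left out, the 2 being Rab3d and Rab24 without Visomitin 1. The count called lower was 1 except with array weights, where it was 4, and 1 in every fit without a library. Of all genes, those called higher numbered 244 in the main fit, 73 with no filter on low values, 481 with median-ratio scaling, 559 with quantile normalization and 1263 with array weights, and 64 to 420 with a library left out; those called lower numbered 591, then 308 with no filter and 1572 with array weights, and 244 to 561 with a library left out. The cause of these shifts was not tested; each fit without a library rests on 5 libraries. The median over the members was -0.01 to 0.10 and fell below 0 without Visomitin 2. Rab5c changed sign without Visomitin 3 (-0.0625). A replicate block, which pairs libraries by number, gave 0 Rab genes higher and 1 lower. Among all genes it called 308 higher and 799 lower. The labels state no pairing, so the numbers were not taken as pairs. Residuals of same-numbered libraries correlated at 0.05, 0.02 and 0.17, and those of differently numbered ones at -0.145 to 0.087. The value of 0.17, for replicate 3, was the highest, while Visomitin 2 correlated better with control 1 (0.09) than with control 2. These values do not settle whether the libraries were paired. With a mean of at least 5 TPM, Rab19, Rab42, Rab4a and Rab6b gave no value.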
